A study of Mus musculus with 24 samples.

Results

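Expression of 10 negative feedback genes of Toll-like receptor (TLR) signalling was followed in mouse bone-marrow-derived macrophages: the MAP kinase phosphatase genes Dusp1, Dusp2, Dusp4, Dusp5, Dusp6 and Dusp16, the cytokine signalling inhibitor genes Socs1 and Socs3, the mRNA decay gene Zfp36 and the IRAK-family gene Irak3. The 10 were chosen by symbol and each matched 1 entry of the 47372 genes in the deposited tables. All 24 libraries were used. They came from 6 mice aged 8 to 12 weeks, all labelled as strain C57BL/6J, 3 of them LXR positive and 3 DKO (LXR negative), in which LXRα and LXRβ, the liver X receptors, were both knocked out. The labels name neither a driver of the deletion nor the deleted exons. Marrow cells of each mouse became macrophages in L929-conditioned medium, a source of the growth factor M-CSF, and received vehicle, KLA at 100 ng/ml, GW3965 at 1 µM or AcLDL at 50 µg/ml. KLA is Kdo2-lipid A, the TLR4-activating part of bacterial lipopolysaccharide. GW3965 is a synthetic LXR agonist, and AcLDL is acetylated low-density lipoprotein, which loads macrophages with cholesterol. Vehicle, KLA and GW3965 were given on day 5 for 17 hours, and no source used here gives the duration of AcLDL. This made 8 groups of 3 libraries, each from a separate mouse within its group, while the 4 treatments of a genotype share its 3 mice.

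Binding of lipid A to TLR4 activates the adaptor MyD88, the IRAK kinases, the MAP kinases ERK, JNK and p38, and NF-κB, and leads to secretion of interferons and cytokines that signal through JAK kinases and STAT factors. Macrophages also induce genes whose products damp each of these steps. DUSP phosphatases remove phosphate from MAP kinases, SOCS proteins bind cytokine receptors and JAKs, Irak3 (IRAK-M) holds back the IRAK complex beneath MyD88, and Zfp36 (tristetraprolin) binds AU-rich elements in the 3′ untranslated regions of cytokine mRNAs and speeds their decay. Liver X receptors are nuclear receptors for oxidized cholesterol derivatives, known in macrophages for switching on cholesterol export genes and for limiting inflammatory gene expression.

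The promoters of 4 members held letters that match the binding motif of a factor acting downstream of TLR4, and they are shown for that reason. Each line is the 250 bases before the RefSeq transcription start (build GRCm38.p6), read in the direction of the gene, with motif matches in capitals. The windows lie at chr11:117969367-117969616 for Socs3, chr7:28379229-28379478 for Zfp36, chr17:26508473-26508722 for Dusp1 and chr16:10785537-10785786 for Socs1, all on the minus strand. The gene coordinates given below start further upstream for Socs3, Zfp36 and Dusp1. By them the Socs3 and Zfp36 windows lie inside the gene and the Dusp1 window partly so. Distances hold for the RefSeq start only.
Socs3: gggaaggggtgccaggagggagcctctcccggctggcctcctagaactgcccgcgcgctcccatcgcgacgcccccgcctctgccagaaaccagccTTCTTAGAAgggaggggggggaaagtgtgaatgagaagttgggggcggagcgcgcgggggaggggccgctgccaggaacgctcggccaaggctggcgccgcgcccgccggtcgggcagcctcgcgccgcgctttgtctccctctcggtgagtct
Zfp36: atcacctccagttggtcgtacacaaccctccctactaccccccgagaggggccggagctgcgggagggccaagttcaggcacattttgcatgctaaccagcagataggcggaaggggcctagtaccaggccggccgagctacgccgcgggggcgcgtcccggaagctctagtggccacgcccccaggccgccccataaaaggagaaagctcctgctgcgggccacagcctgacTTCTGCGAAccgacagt
Dusp1: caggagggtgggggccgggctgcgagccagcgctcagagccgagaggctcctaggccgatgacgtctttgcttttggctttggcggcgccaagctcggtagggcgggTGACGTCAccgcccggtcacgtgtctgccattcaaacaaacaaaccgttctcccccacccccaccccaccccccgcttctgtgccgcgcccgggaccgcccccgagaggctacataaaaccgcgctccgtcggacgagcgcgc
Socs1: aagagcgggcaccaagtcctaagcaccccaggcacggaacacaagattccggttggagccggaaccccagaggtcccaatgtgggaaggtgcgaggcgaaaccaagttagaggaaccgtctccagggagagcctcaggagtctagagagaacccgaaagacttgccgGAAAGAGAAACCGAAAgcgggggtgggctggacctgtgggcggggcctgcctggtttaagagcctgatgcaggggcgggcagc
The capitals in Socs3 and Zfp36 match TTCNNNGAA, the gamma-activated site bound by STAT dimers. The match in Socs3 is TTCTTAGAA, 154 to 146 bases before the start, and that in Zfp36 is TTCTGCGAA, 17 to 9 bases before it. The capitals in Dusp1 match the cyclic AMP response element TGACGTCA, 143 to 136 bases before the start. Those in Socs1 are 2 overlapping matches to an interferon regulatory factor motif, GAAA, any 2 bases and GAAA again, with GAAAGAGAAA at 83 to 74 bases and GAAACCGAAA at 77 to 68 bases before the start. Both strands were searched, and the interferon regulatory factor motif was added to the search after the sequences had been read. Of 32851 mouse promoter windows of the same length, 7.02% held the STAT motif, 1.55% the cyclic AMP motif and 2.98% the interferon regulatory factor motif. No member's window held the AP-1 motif TGANTCA (6.75% of windows) or the NF-κB consensus (7.25%). Of the 10 members 9 had an entry, and the one without was Dusp4. The G and C content of the members' windows ran from 47.6% to 71.6%, against a median of 52.4% over all windows. A match is a description of the sequence only.

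The members' own mRNAs differed in AU-rich pentamers, the element that Zfp36 binds. In the 3′ untranslated regions of the longest GENCODE M21 coding transcripts, Dusp2 carried 4 copies of ATTTA (6.89 per 1000 bases, more than 97.0% of 12694 expressed genes) and Dusp1 carried 4 (5.80 per 1000 bases, more than 95.3%). Zfp36 itself carried 3 (3.88 per 1000 bases) and Socs3 carried 4 (2.71 per 1000 bases), while the median gene carried 1.27 per 1000 bases. The longer form TATTTAT was present in Dusp1, Dusp2, Socs3 and Zfp36, 4 of the 10 members, against 28.3% of all genes compared. Dusp4 carried 1.80 ATTTA per 1000 bases. Dusp16 (1.24), Irak3 (0.94), Dusp5 (0.90) and Dusp6 (0.84) lay below the median of 1.27, and Socs1 had no ATTTA. In all, 5 of the 10 members were above the median density.

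Values are the authors' normalized counts, that is, reads per gene divided by 1 size factor per library. Library totals were 6448579 to 17348717 reads in the LXR-positive group and 9705391 to 27189081 in the DKO group, so low genes were measured more precisely in DKO libraries. Nr1h2, which encodes LXRβ, was at 275 to 399 in DKO libraries and 438 to 821 in LXR-positive libraries. Nr1h3, which encodes LXRα, was at 123 to 751 and 114 to 1267, and because the deleted exons are not named, reads from remaining exons cannot be told apart from intact transcript. Of 10 macrophage markers 9 were found, and their summed level was 136879 to 421269 in the 24 libraries. Lyz2 was the highest of the 9, at 81053 to 312898, and weighs most in this sum. Neutrophil and precursor markers (11 of 11) summed to 3611 to 7449 in LXR-positive libraries and 4971 to 12425 in DKO libraries. Stromal markers (8 of 8) summed to 91.6 to 1193 in LXR-positive libraries and 234 to 8163 in DKO libraries. The part of these other cells in the results below was not tested. In bulk RNA, fewer cells of a type and less RNA per cell cannot be told apart.

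**Figure D1:**
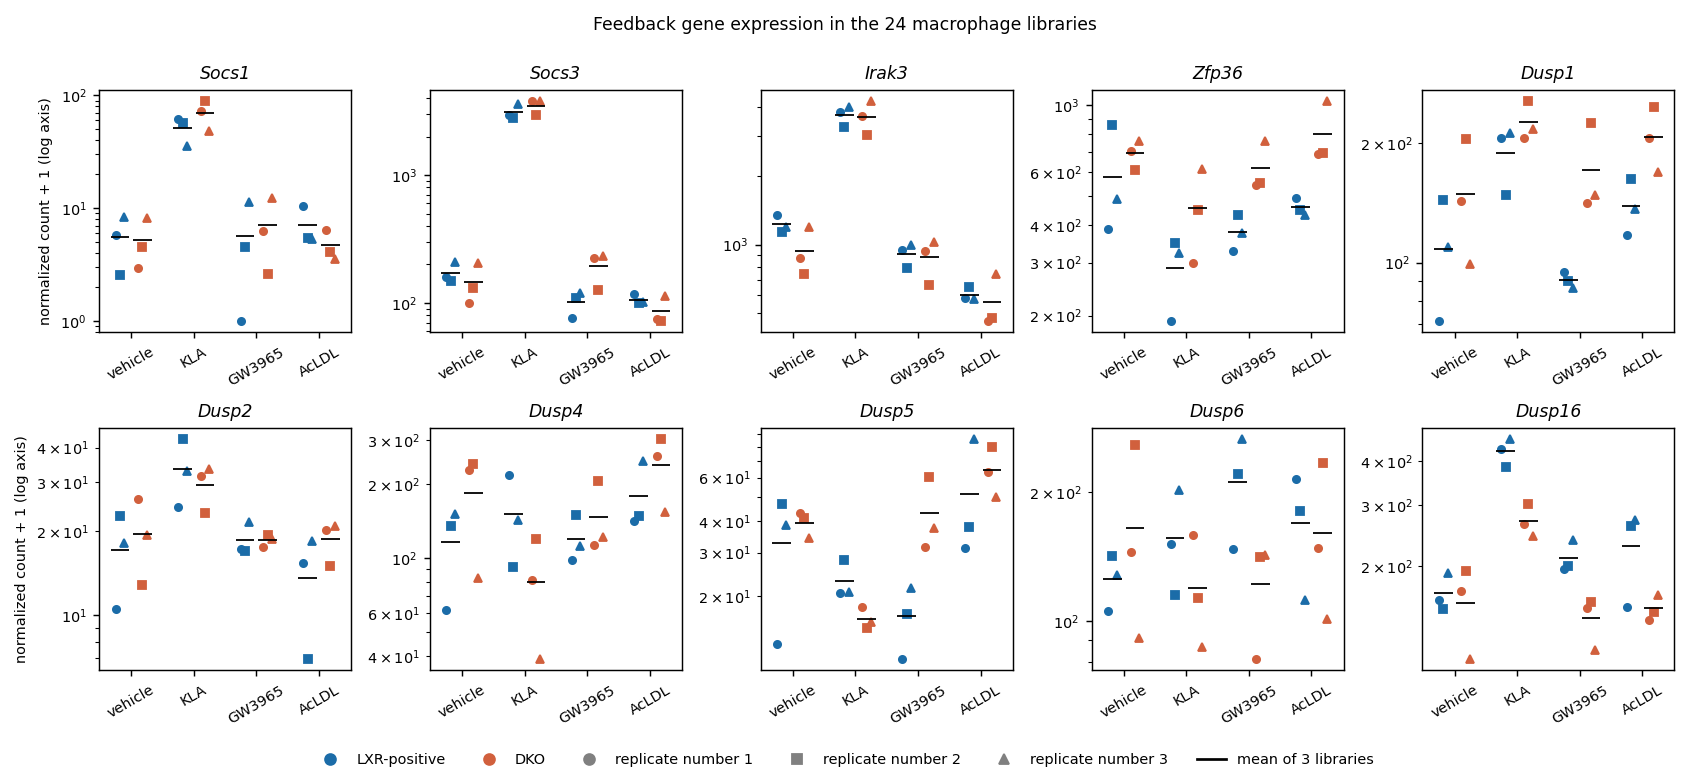
Normalized count + 1 (log axis) of the 10 feedback genes in the 24 libraries, by treatment, with LXR-positive libraries in blue, DKO libraries in orange, a marker shape for each mouse number within a genotype and a bar for the mean of 3. Socs1, Socs3 and Irak3 stand apart with KLA in both genotypes, with Socs3 at 2794 to 3790 in KLA libraries.

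KLA raised Socs1, Socs3, Irak3 and Dusp16 in both genotypes. In LXR-positive macrophages 6 of the 10 genes passed the test, Dusp1 in addition rising and Zfp36 falling, where 28.6% of 15957 tested genes passed (16.2% higher and 12.4% lower). In DKO macrophages 5 of the 10 passed, Dusp5 falling beside the 4 that rose, where 25.2% of genes passed (14.0% higher and 11.1% lower). The test was limma on log2(value + 1), with p-values adjusted by Benjamini-Hochberg over all tested genes and a call at an adjusted p under 0.05. The median log2 fold change of the 10 was 0.92 in LXR-positive and 0.65 in DKO macrophages, and that of all tested genes lay at -0.0028 and -0.0038. Macrophage markers summed to 221486 to 295812 with vehicle and 346723 to 421269 with KLA in LXR-positive macrophages. In DKO macrophages they summed to 174334 to 206164 and 266848 to 304442. This sum is weighted to Lyz2 and includes Cd14, which itself rose with KLA (log2 fold change 1.28 ± 0.17 and 1.06 ± 0.17). The part of these markers in the changes was not tested.

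Socs3, whose product binds the IL-6 receptor chain gp130 and curbs STAT3, gave the largest KLA response of the 10 in both genotypes. It lies at chr11:117966079-117970047. In LXR-positive macrophages its vehicle libraries read 158, 147 and 206 and its KLA libraries 2934, 2794 and 3596 for mice 1, 2 and 3. In DKO macrophages the vehicle libraries read 99.2, 130 and 204 and the KLA libraries 3790, 2951 and 3766. Every KLA library was above every vehicle library, and the DKO and LXR-positive ranges overlapped under both conditions. The mean rose 18.2-fold in LXR-positive macrophages (log2 fold change 4.19 ± 0.23 SE, limma adjusted p = 2.2e-07, n = 3 and 3) and 24.3-fold in DKO macrophages (4.65 ± 0.23, adjusted p = 1.9e-07). Its promoter window holds the STAT motif match TTCTTAGAA shown above. Zfp36 holds a match to the same motif and did not rise with KLA. Any part of the motif in these values was not tested.

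Socs1, an inhibitor of JAK kinases that limits interferon signalling, lies at chr16:10783808-10785536 and was hardly detected without KLA. Its vehicle libraries held 2 to 6 reads in LXR-positive and 4 to 16 reads in DKO macrophages, giving normalized counts of 4.76, 1.56 and 7.33 and of 1.93, 3.56 and 7.21. With KLA the LXR-positive libraries read 61.3, 55.4 and 34.9 and the DKO libraries 71.1, 87.8 and 47.7. All KLA libraries were above all others, and the genotypes overlapped. The log2 fold change was 3.34 ± 0.50 in LXR-positive (limma adjusted p = 3.6e-04) and 3.82 ± 0.50 in DKO macrophages (adjusted p = 1.5e-04), a scale that understates the change at such low counts.

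Irak3 lies at chr10:120141648-120202130 and shares 192 exon bases with Tmbim4 on the opposite strand. No source used here gives the strand setting of the counting, so reads from that stretch are uncertain. Its vehicle libraries read 1350, 1136 and 1193 in LXR-positive and 868, 745 and 1189 in DKO macrophages. With KLA they read 3821, 3263 and 3991 and 3641, 3008 and 4246, so KLA and vehicle libraries did not overlap in either genotype. Irak3 rose 3.01-fold in LXR-positive (log2 fold change 1.59 ± 0.17, limma adjusted p = 3.7e-05) and 3.89-fold in DKO macrophages (1.97 ± 0.17, adjusted p = 7.9e-06).

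Zfp36 went the other way. It lies at chr7:28376784-28380253 and shares 125 exon bases with Gm44710 on the opposite strand. Vehicle libraries of LXR-positive macrophages read 385, 860 and 485, and KLA libraries 190, 347 and 322, all below the lowest vehicle library. Zfp36 fell by 0.97 ± 0.32 on the log2 scale (limma adjusted p = 0.041). Without vehicle library 2, the highest, the value was -0.64 (adjusted p = 0.16), and leaving out vehicle library 3, KLA library 1 or KLA library 3 also lost the call (adjusted p 0.057 to 0.15). In DKO macrophages the vehicle libraries read 704, 607 and 760 and the KLA libraries 298, 448 and 613, and mouse 3 of the KLA group lay within the vehicle range. The DKO value was -0.66 ± 0.32 (adjusted p = 0.16), and with the mouse as a block it passed (limma adjusted p = 0.041).

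Dusp16, a phosphatase of JNK and p38 at chr6:134715468-134792625, was the only one of the 6 Dusp genes that rose in both genotypes by this test. LXR-positive vehicle libraries read 159, 150 and 191 and KLA libraries 433, 383 and 461. DKO vehicle libraries read 169, 192 and 107 and KLA libraries 262, 301 and 243. KLA libraries were above vehicle libraries in both genotypes, and the LXR-positive KLA libraries were all above the DKO KLA libraries. The rise was 2.56-fold in LXR-positive (log2 fold change 1.35 ± 0.20, limma adjusted p = 3.3e-04) and 1.72-fold in DKO macrophages (0.82 ± 0.20, adjusted p = 0.010).

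Dusp1, a nuclear phosphatase best known for switching off p38 and JNK after TLR activation, lies at chr17:26505590-26508519 and shares 11 exon bases with Ergic1 on the opposite strand. In LXR-positive macrophages the vehicle libraries read 70.2, 143 and 109 and the KLA libraries 205, 147 and 211, with mouse 2 lowest among the KLA libraries and highest among the vehicle libraries. It rose by a log2 fold change of 0.84 ± 0.29 (limma adjusted p = 0.047). The call was lost without vehicle library 1 or 3 or without KLA library 1 or 3 (adjusted p 0.0819 to 0.18), and with edgeR (0.0683), DESeq2 (0.0510) and 4 other alternatives. In DKO macrophages the libraries read 142, 204 and 98.3 with vehicle and 205, 254 and 216 with KLA, just clear of each other, with a log2 fold change of 0.66 ± 0.29 (adjusted p = 0.12). Without DKO vehicle library 2 the DKO value was 0.92 (adjusted p = 0.049).

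Dusp2, another nuclear phosphatase induced in activated immune cells, lies at chr2:127336159-127338376 and was a low gene, with 4 to 53 reads per library. LXR-positive libraries read 9.52, 21.8 and 17.1 with vehicle and 23.5, 41.9 and 31.9 with KLA, which did not overlap. The log2 fold change of 1.00 ± 0.37 missed the threshold (limma adjusted p = 0.065) and passed with the mouse as a block (0.025). It also passed without vehicle library 2 (0.045). DKO libraries read 25.2, 11.9 and 18.5 with vehicle and 30.6, 22.2 and 32.4 with KLA, which overlapped (0.63 ± 0.37, adjusted p = 0.25).

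Dusp5, a nuclear ERK phosphatase at chr19:53529109-53542431, read 42.1, 40.4 and 33.4 with vehicle and 17.1, 13.9 and 14.7 with KLA in DKO macrophages. These ranges lay apart, and Dusp5 fell by 1.29 ± 0.41 on the log2 scale (limma adjusted p = 0.038), a call lost when any 1 of the 6 libraries was left out (0.059 to 0.11). In LXR-positive macrophages it read 11.9, 45.9 and 37.9 with vehicle and 19.6, 27.0 and 19.7 with KLA (-0.33 ± 0.41, adjusted p = 0.59). Vehicle library 1 was the low one there, and without it the value was -0.90 (adjusted p = 0.035). The libraries held 5 to 101 reads of Dusp5.

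Dusp4, a nuclear phosphatase at chr8:34807297-34819894, read 60.7, 134 and 150 with vehicle and 217, 91.3 and 141 with KLA in LXR-positive macrophages (log2 fold change 0.39 ± 0.52, limma adjusted p = 0.61). DKO macrophages read 226, 240 and 82.1 with vehicle and 80.4, 118 and 38.0 with KLA (-1.20 ± 0.52, adjusted p = 0.12). Each DKO mouse was lower with KLA than with vehicle, and mouse 3 was the lowest in both conditions, which makes the groups overlap. Without DKO vehicle library 3 the value was -1.69 and passed (adjusted p = 0.033). Dusp6, the cytoplasmic ERK phosphatase at chr10:99263231-99267488, read 105, 141 and 127 with vehicle and 150, 114 and 202 with KLA in LXR-positive macrophages (0.29 ± 0.35, adjusted p = 0.57). In DKO macrophages it read 144, 258 and 90.2 with vehicle and 158, 112 and 85.7 with KLA (-0.38 ± 0.35, adjusted p = 0.48). The KLA and vehicle libraries of Dusp6 overlapped in both genotypes.

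Treated and vehicle libraries did not overlap for 7 of the 10 genes with KLA in LXR-positive macrophages, 6 higher and 1 lower, where 21.6% of tested genes lay wholly above and 18.0% wholly below vehicle. In DKO macrophages 5 lay above and 1 below, where 23.6% and 21.5% of tested genes did. Socs1, Socs3, Irak3 and Dusp16 passed with KLA in both genotypes in every alternative analysis that was run, those with 1 library left out included.

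The KLA response itself was then compared between genotypes by the interaction term. None of the 10 genes passed in limma, where 0.0689% of tested genes (11 of 15957) passed, and none had an unadjusted p under 0.05. edgeR and DESeq2 on the recovered reads also called 0 of the 10. The largest difference was that of Dusp4, whose log2 fold change was lower in DKO macrophages by 1.59 ± 0.73 on the log2 scale (difference -1.59, unadjusted p = 0.051, adjusted p = 0.86). The difference was -0.53 ± 0.28 for Dusp16, -0.96 ± 0.58 for Dusp5 and -0.67 ± 0.49 for Dusp6. For Socs3 it was 0.46 ± 0.32, for Socs1 0.49 ± 0.70, for Irak3 0.38 ± 0.24 and for Zfp36 0.31 ± 0.46. For Dusp1 it was -0.18 ± 0.41 and for Dusp2 -0.36 ± 0.53. All 6 Dusp genes thus had a difference below 0 and the other 4 a difference above 0, and none passed. This split of signs did not hold in every fit with 1 library left out. In those fits the difference ran from -0.44 to 0.092 for Dusp1 and from -0.022 to 0.58 for Zfp36. The authors' deposited table of the same interaction gives -1.60 for Dusp4 with an adjusted p of 0.612, the smallest of the 10 for KLA.

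**Figure D2:**
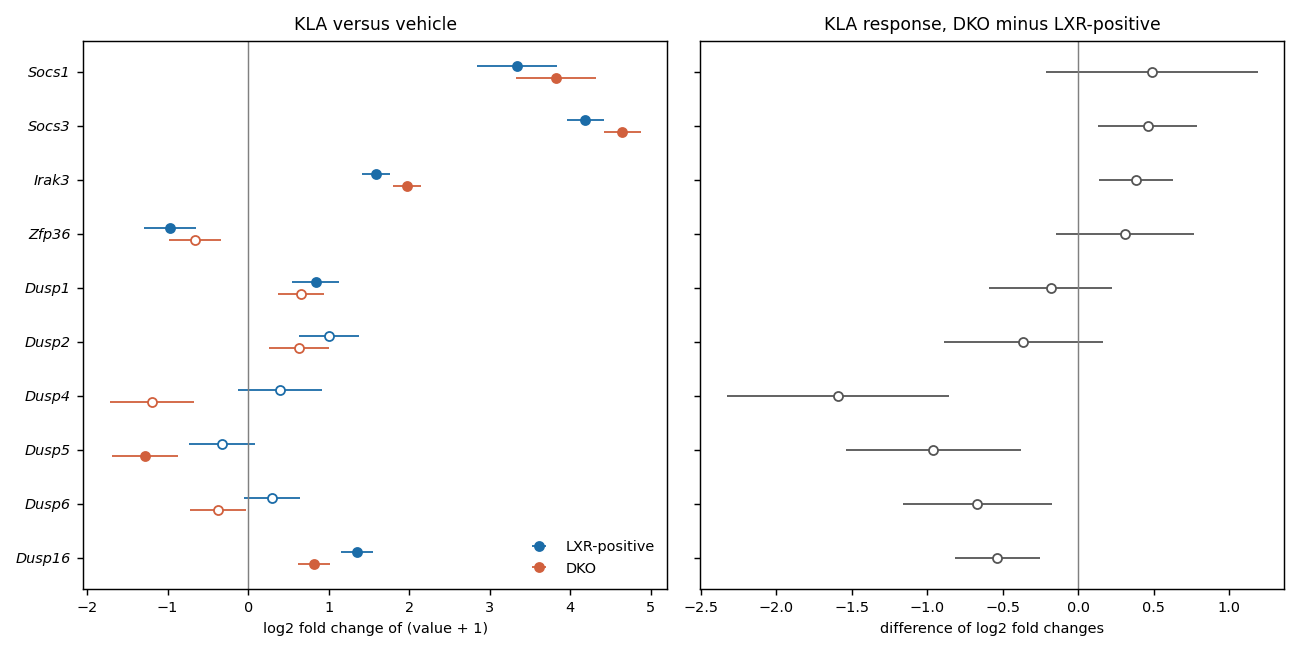
Left, log2 fold change of (value + 1) with KLA against vehicle, with its standard error, for LXR-positive (blue) and DKO (orange) macrophages, where a filled point has an adjusted p under 0.05. Right, the DKO minus LXR-positive difference of these log2 fold changes with its standard error, in which no point is filled.

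The lists of other pathway genes put the members beside their relatives. The counts in each list stand against 16.2% of all tested genes higher and 12.4% lower with KLA in LXR-positive macrophages. In DKO macrophages these shares were 14.0% and 11.1%. Of 7 tested MAP kinase phosphatase genes outside the 10, KLA lowered 3 in both genotypes, Dusp22 (log2 fold change -1.39 ± 0.17 in LXR-positive and -1.36 ± 0.17 in DKO), Dusp7 (-1.31 ± 0.18 and -1.03 ± 0.18) and Dusp3 (-0.75 ± 0.18 and -0.81 ± 0.18). Dusp18 rose in LXR-positive macrophages (0.91 ± 0.24) and stood at 0.33 ± 0.24 in DKO macrophages (limma adjusted p = 0.36), a difference of -0.59 ± 0.34 that did not pass. Of the 6 other SOCS genes none rose, and Socs6 fell in both genotypes (-1.36 ± 0.15 and -1.20 ± 0.15), with Socs5 lower in DKO macrophages in addition (-0.33 ± 0.10). The SOCS genes that rose with KLA were the members Socs1 and Socs3. Of 9 genes of the Zfp36 family and other mRNA decay regulators, 4 fell in both genotypes, and these included the close relatives Zfp36l1 (-2.16 ± 0.43 and -1.47 ± 0.43) and Zfp36l2 (-1.39 ± 0.13 and -1.29 ± 0.13) as well as Rc3h1 and Rc3h2. The RNase gene Zc3h12c rose in both (1.14 ± 0.21 and 1.16 ± 0.21). Zc3h12a, which encodes Regnase-1, was called in DKO macrophages (0.83 ± 0.21) and stood at 0.29 ± 0.21 in LXR-positive macrophages (limma adjusted p = 0.32).

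Other brakes on TLR signalling rose more often than they fell, 10 higher and 5 lower of 25 in LXR-positive and 12 higher and 3 lower in DKO macrophages. The shares over all tested genes were 16.2% higher and 12.4% lower in LXR-positive, and 14.0% and 11.1% in DKO macrophages. Il1rn, the interleukin-1 receptor antagonist, rose by 3.24 ± 0.43 and 3.18 ± 0.43 on the log2 scale. Tnip3, Usp18, Tnfaip3 (the deubiquitinase A20, 1.64 ± 0.22 in LXR-positive) and Nfkbia (the NF-κB inhibitor IκBα, 1.58 ± 0.24 in LXR-positive and 2.16 ± 0.24 in DKO) also rose. Mean Tnfaip3 with vehicle and KLA was 720 and 2292 in LXR-positive, and 649 and 2385 in DKO macrophages. Il10 fell in both (-2.10 ± 0.42 and -1.70 ± 0.42). Among 22 JAK-STAT components, Jak2 (2.79 ± 0.11 and 2.58 ± 0.11) rose with Socs1 and Socs3, while Il6st, the gp130 chain that Socs3 protein binds, fell (-2.30 ± 0.23 and -1.65 ± 0.23). The counts for this list were 5 higher and 6 lower in LXR-positive and 8 higher and 6 lower in DKO macrophages, against the same shares.

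Upstream of the members, 5 of 22 TLR4 receptor and adaptor genes rose in LXR-positive and 6 in DKO macrophages, none falling, with Cd14 at 1.28 ± 0.17 and 1.06 ± 0.17. Of 17 MAP kinase cascade genes 5 rose and 1 fell in LXR-positive, and 6 rose and 1 fell in DKO macrophages. Of all tested genes 16.2% were higher and 12.4% lower with KLA in LXR-positive, and 14.0% and 11.1% in DKO macrophages. Of 13 immediate early genes, the quick targets of MAP kinases, 2 were higher and 4 lower in LXR-positive macrophages, against these 16.2% and 12.4%. In DKO macrophages 2 were higher and 6 lower, against 14.0% and 11.1%. Fos (-1.74 ± 0.21 and -1.59 ± 0.21) and Egr2 (-2.69 ± 0.44 and -3.39 ± 0.44) fell in both. Of 5 ERK feedback genes tested, Spred2 rose in both (1.45 ± 0.28 and 1.08 ± 0.28). The cytokine and inflammatory genes rose in 13 of 17 and 14 of 17 cases with none falling, for example Il1b (7.19 ± 0.34 and 6.74 ± 0.34). No gene of these 10 lists passed the test for a genotype difference in the KLA response.

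**Figure D3:**
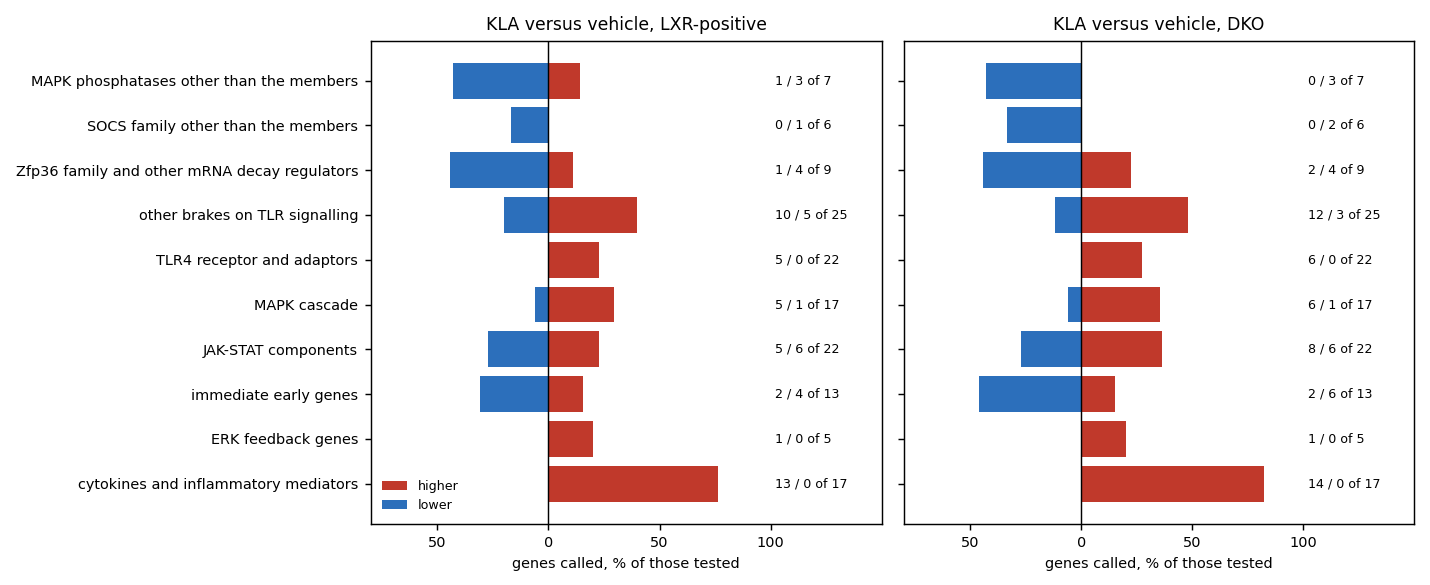
Share of the tested genes of each list called higher (red, to the right) or lower (blue, to the left) with KLA against vehicle at an adjusted p under 0.05, with the counts higher / lower of tested at the right of each bar. Cytokine genes were higher in 13 of 17 and 14 of 17 cases, and SOCS genes outside the members were higher in none. Over all tested genes 16.2% were higher and 12.4% lower in LXR-positive, and 14.0% and 11.1% in DKO macrophages.

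The LXR agonist GW3965 moved none of the members past the threshold. In LXR-positive macrophages 0 of 9 tested genes were called by limma, where 0.267% of 16116 genes were, and 2 of the 9 had an unadjusted p under 0.05, Socs3 and Irak3, as had 988 of 16116 genes. Socs1 was not tested, since fewer than 3 libraries reached 10 normalized counts. edgeR and DESeq2 also called 0 members. In DKO macrophages 0 of 9 were called, where 0.00621% of genes (1 gene) were, and none had an unadjusted p under 0.05.

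Socs3 had the largest difference in GW3965 response between genotypes among the 9. LXR-positive libraries read 75.2, 109 and 118 with the agonist, all below the 147 to 206 of vehicle. DKO libraries read 224, 125 and 232, overlapping their vehicle range of 99.2 to 204. The log2 fold change was -0.77 ± 0.30 in LXR-positive (limma adjusted p = 0.73) and 0.43 ± 0.30 in DKO macrophages (adjusted p = 0.92). Their difference was 1.20 ± 0.43 (unadjusted p = 0.016, adjusted p = 0.96), and 0 of the 9 passed this interaction test, where 0.118% of genes did. The authors' deposited table gives 1.17 for Socs3 with an adjusted p of 0.395, the smallest of the 10 there.

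Irak3 read 948, 784 and 998 with GW3965 in LXR-positive macrophages, all below vehicle (log2 fold change -0.43 ± 0.19, limma adjusted p = 0.80), and 938, 666 and 1026 in DKO macrophages (-0.09 ± 0.19). Dusp6 read 146, 219 and 265 in LXR-positive macrophages, all above the vehicle range of 105 to 141 (0.72 ± 0.35, adjusted p = 0.83), and 80.3, 140 and 142 in DKO macrophages (-0.35 ± 0.35). The interaction for Dusp6 was -1.08 ± 0.50 (adjusted p = 0.99). Dusp16 read 195, 200 and 237 in LXR-positive macrophages, just above its vehicle libraries (0.34 ± 0.21, adjusted p = 0.85). Thus 2 genes lay wholly above vehicle, where 5.22% of genes did, and 2 wholly below, where 4.48% did. In DKO macrophages every member overlapped its vehicle range, where 6.45% of genes lay above and 7.16% below.

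AcLDL was followed by lower Irak3 in every mouse. LXR-positive libraries read 582, 650 and 574, against 1136 to 1350 with vehicle, and DKO libraries read 460, 477 and 743, against 745 to 1189. The treated and vehicle libraries were apart in both genotypes, narrowly in DKO macrophages, where mouse 3 with AcLDL nearly met mouse 2 with vehicle. The AcLDL mean was 0.491 of the vehicle mean in LXR-positive and 0.600 of it in DKO macrophages. The log2 fold change was -1.02 ± 0.20 (limma adjusted p = 0.069) and -0.74 ± 0.20 (adjusted p = 0.44), neither past the threshold. With the mouse as a block, Irak3 passed in both genotypes (limma adjusted p = 0.0062 in LXR-positive and 0.042 in DKO). With AcLDL against vehicle, neutrophil markers summed to 3943 to 4455 against 5235 to 5969 in LXR-positive and 6882 to 9187 against 6987 to 9951 in DKO macrophages. Erythroid and megakaryocyte markers (8 of 8) summed to 510 to 644 against 244 to 325 and 601 to 716 against 322 to 472, and the part of either in the Irak3 values was not tested. The difference in Irak3 response between genotypes was 0.28 ± 0.28, with an adjusted p that rounded to 1.

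Socs3 read 116, 97.9 and 101 with AcLDL in LXR-positive macrophages, all below vehicle (log2 fold change -0.68 ± 0.26, limma adjusted p = 0.33), and 73.5, 70.9 and 112 in DKO macrophages, which overlapped vehicle (-0.72 ± 0.26, adjusted p = 0.69). Dusp5 in DKO macrophages read 62.0, 78.7 and 49.0, all above vehicle (0.68 ± 0.47, adjusted p = 0.88). In LXR-positive macrophages it read 30.3, 37.1 and 84.7 and overlapped vehicle (0.71 ± 0.47, adjusted p = 0.56). Irak3 and Socs3 thus lay wholly below vehicle in LXR-positive macrophages, where 9.30% of genes did. In DKO macrophages Dusp5 lay wholly above, where 5.83% of genes did, and Irak3 wholly below, where 5.67% did. The limma test called 0 of 9 tested genes in LXR-positive macrophages, where 0.225% of 16026 genes were, and 0 of 9 in DKO macrophages, where 0.125% were. In each genotype 2 of the 9 had an unadjusted p under 0.05, Irak3 and Socs3, as had 1979 of 16026 genes in LXR-positive and 1004 in DKO macrophages. The interaction called 0 of 9, where 0.0250% of genes were called, with 0 at an unadjusted p under 0.05. edgeR called 0 members in these 3 comparisons, and DESeq2 called Irak3 in LXR-positive macrophages (adjusted p = 0.000461). The share of all genes that DESeq2 called there is not reported here.

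**Figure D4:**
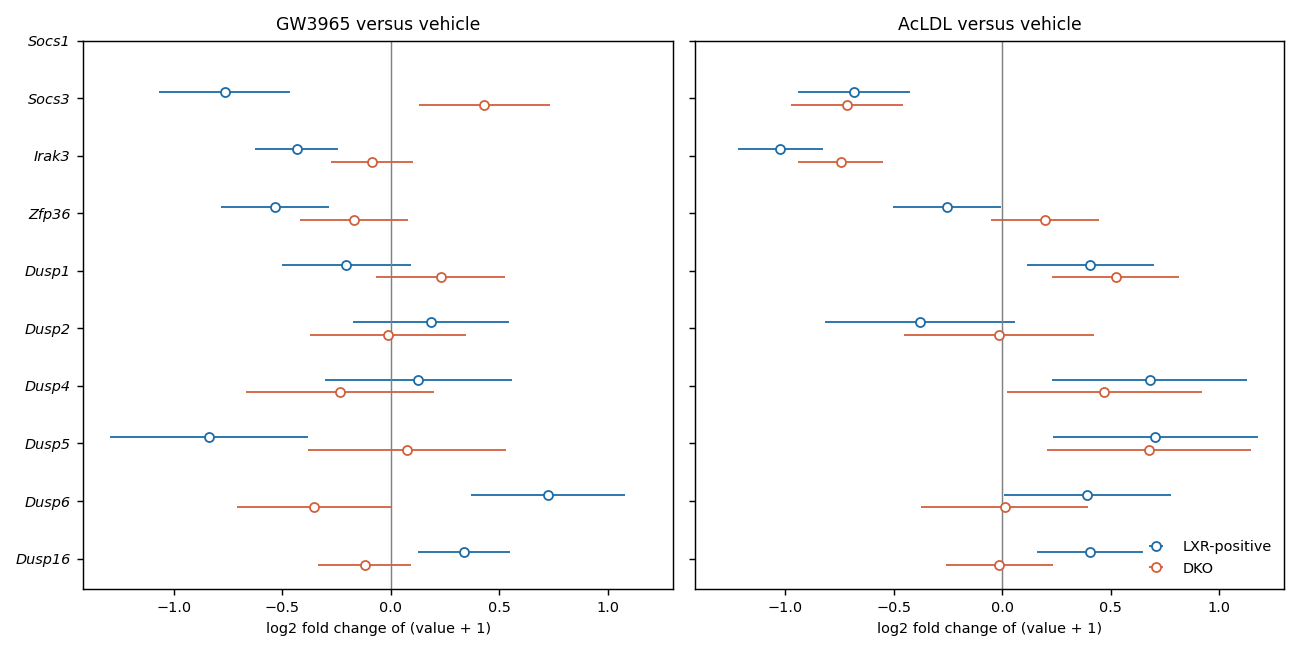
Log2 fold change of (value + 1) with its standard error for GW3965 (left) and AcLDL (right) against vehicle, in LXR-positive (blue) and DKO (orange) macrophages. All points are open because none had an adjusted p under 0.05, Socs1 was not tested, and Irak3 with AcLDL lies at -1.02 and -0.74.

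Within a treatment, DKO and LXR-positive libraries were then compared directly. With vehicle 0 of 9 genes were called by limma, where 0.316% were, and 1 had an unadjusted p under 0.05 (1965 of 16116 genes had), Irak3 (log2 difference -0.42 ± 0.19, adjusted p = 0.41). With KLA 0 of 10 were called, where 6.87% were, and 1 had an unadjusted p under 0.05 (3838 of 15957 genes had), Dusp16 (-0.66 ± 0.20, adjusted p = 0.064). With GW3965 0 of 9 were called, where 9.64% were, and 6 of the 9 had an unadjusted p under 0.05, as had 4406 of 16116 genes. With AcLDL 0 of 9 were called, where 8.60% were, and Zfp36 (0.79 ± 0.25, adjusted p = 0.072) and Dusp16 (-0.55 ± 0.25, adjusted p = 0.18) had an unadjusted p under 0.05, as had 4198 of 16026 genes. edgeR called 0 members in these 4 comparisons, and DESeq2 called 0, 1 (Dusp16), 3 (Dusp1, Dusp5 and Socs3) and 1 (Zfp36). The share of all genes that DESeq2 called is not reported here, so these counts are no result about the members.

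Under GW3965 the genotype ranges of 6 members lay apart. Higher in DKO were Dusp1, with 140, 224 and 147 in DKO and 93.5, 89.1 and 85.5 in LXR-positive libraries (log2 difference 0.89 ± 0.30, limma adjusted p = 0.079), and Dusp5, with 30.5, 59.1 and 36.7 against 10.2, 16.0 and 20.6 (1.37 ± 0.45, adjusted p = 0.077). Socs3 (0.91 ± 0.30, adjusted p = 0.077) and Zfp36, with 541, 552 and 760 against 327, 431 and 374 (0.70 ± 0.25, adjusted p = 0.094), were also higher in every DKO library. Lower in every DKO library were Dusp6 (-0.80 ± 0.35, adjusted p = 0.17) and Dusp16, with 151, 157 and 114 against 195, 200 and 237 (-0.59 ± 0.21, adjusted p = 0.10). Of all tested genes 14.5% lay wholly higher and 15.6% wholly lower in DKO. With the replicate number as a block, Dusp1 (limma adjusted p = 0.033), Dusp5 (0.039) and Socs3 (0.033) passed. The number names a mouse only within a genotype, so this block joins different mice arbitrarily. In the same GW3965 libraries stromal markers summed to 1555 to 8163 in DKO and 237 to 819 in LXR-positive macrophages, and neutrophil markers to 9021 to 12425 and 4585 to 7449, and their part in these values was not tested.

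Across the 4 treatments Dusp1 and Zfp36 had a higher mean in DKO each time and Dusp16 and Irak3 a lower one. The DKO mean of Zfp36 was 1.20, 1.58, 1.64 and 1.76 times the LXR-positive mean with vehicle, KLA, GW3965 and AcLDL, and that of Dusp1 was 1.20 to 1.90 times. For Dusp16 the ratios were 0.936, 0.631, 0.668 and 0.663, and for Irak3 0.762, 0.984, 0.964 and 0.930. The 4 comparisons use the same 3 mice of each genotype, so they are not independent. The share of all genes that keep 1 direction in the 4 comparisons was not counted. With 1 library left out, the log2 difference of Irak3 ran from -0.15 to 0.096 with KLA and from -0.19 to 0.12 with GW3965. That of Dusp16 with vehicle ran from -0.30 to 0.12. With AcLDL, Zfp36 read 688, 693 and 1029 in DKO and 491, 448 and 431 in LXR-positive libraries, and Dusp1 read 205, 246 and 168 against 116, 162 and 136, both without overlap, where 15.0% of genes lay wholly higher in DKO. In the same AcLDL libraries macrophage markers summed to 136879 to 179040 in DKO and 223954 to 257472 in LXR-positive macrophages, neutrophil markers to 6882 to 9187 and 3943 to 4455, and dendritic cell markers (8 of 8) to 539 to 1403 and 285 to 458, and their part in these values was not tested. With KLA, Dusp5 and Dusp16 lay wholly lower in DKO, where 15.0% of genes did.

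**Figure D5:**
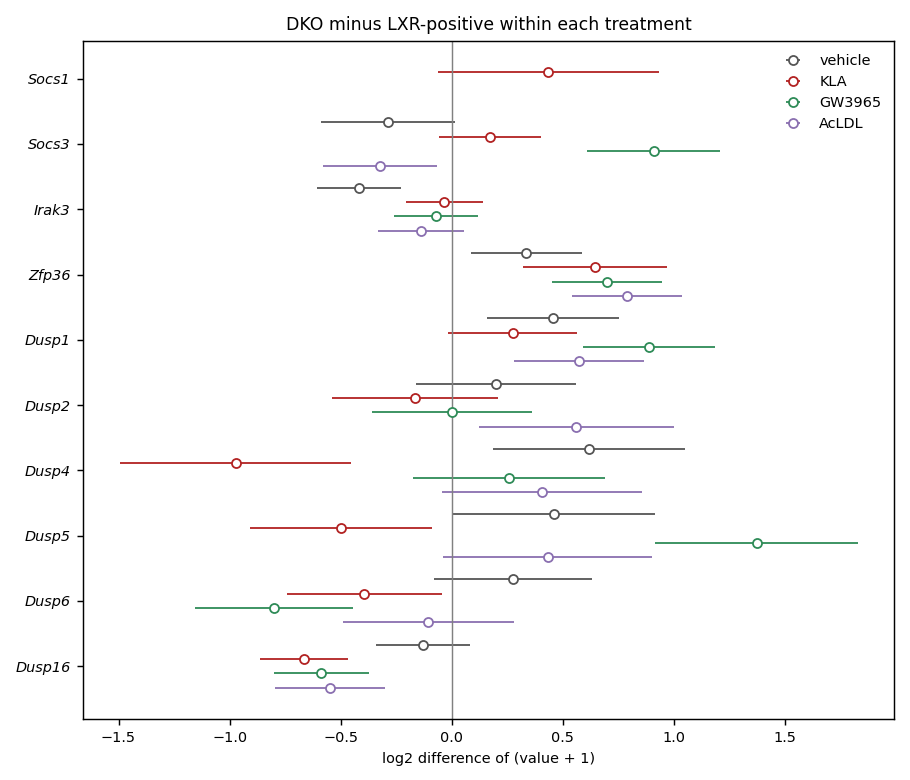
DKO minus LXR-positive log2 difference of (value + 1), with its standard error, for each gene under vehicle (grey), KLA (red), GW3965 (green) and AcLDL (violet). All points are open because none had an adjusted p under 0.05, and Zfp36 and Dusp1 lie above 0 and Dusp16 and Irak3 below 0 under all 4 treatments.

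Ordered by group mean, the KLA groups stood at the top for Socs1, Socs3, Irak3, Dusp2 and Dusp16. For Irak3 the order ran from 3692 ± 381 (SD, n = 3) in LXR-positive KLA and 3632 ± 619 in DKO KLA, which did not differ beyond their spread, through the vehicle and GW3965 groups at 877 to 1226, down to AcLDL at 602 ± 41.7 and 560 ± 159. For Socs3 the KLA means of 3502 ± 478 and 3108 ± 428 were followed by 6 groups between 85.5 and 194. For Zfp36 the lowest mean was LXR-positive KLA at 287 ± 84.2 and the highest DKO AcLDL at 804 ± 196, with neighbours in the order overlapping. Dusp4 and Dusp5 were lowest in DKO KLA (78.9 ± 40.2 and 15.2 ± 1.66) and highest in DKO AcLDL (238 ± 76.4 and 63.2 ± 14.9). Dusp6 had the narrowest range, its highest group mean being 1.77 times its lowest, and its neighbouring groups overlapped.

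Some pairs of members deviated together within groups. After each group's mean was subtracted, the correlation of log2 values over libraries was below 0 in 23 of the 45 pairs. At the upper end, the deviations of Dusp1 and Dusp4 on the log2 scale correlated at r = 0.74 over the 24 libraries and those of Socs3 and Irak3 at 0.70. Dusp4 and Irak3 deviated in opposite directions (r = -0.72), as did Dusp1 and Irak3 (-0.60). These are descriptions: the 24 libraries come from 6 mice and share a size factor within each library. Over all 24 libraries, where the 6 KLA libraries stand apart, the levels most like Socs3 among 15731 genes were those of Cfb (r = 0.987) and Sod2 (0.984), and those most like Irak3 were Itgal (0.990) and Vasp (0.988). Socs1 was nearest to Heatr9 (0.932) and Agrn (0.931), and Dusp16 to Adrm1 (0.930) and Tor1b (0.927). Zfp36 was nearest to Snrnp48 (0.883) and Zmynd8 (0.871), and Dusp5 to Mkl2 (0.854) and Myo1e (0.847). Dusp1 was nearest to Ergic1 (0.924), the gene it overlaps on the opposite strand, and to Npy (0.908).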

How the data were processed

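The labels' protocols give total RNA, a stranded total RNA kit and libraries from individual mice, read as single-end 50 bp. The submitters' processing notes name kallisto, DESeq2 and GRCm38, and no source used here gives versions, annotation or strand setting. The values the authors deposited are a signal of normalized counts, whole reads divided by 1 size factor per library: 100% of values came out whole within 0.01 read in every library. Log2 fold changes and adjusted p-values from the authors' deposited tables are quoted only where named. The deposited score, a test statistic, was not used.

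The main test was limma-trend (limma 3.58.1) on log2(value + 1) over the 12 libraries of a treatment and vehicle in both genotypes, for genes with at least 10 in at least 3 libraries. The vehicle genotype comparison was fitted with the GW3965 libraries. The script was tested on simulated data. Alternatives were a pseudocount of 8, no filter, quantile normalization, edgeR 4.0.16 and DESeq2 1.42.0 on recovered reads. Others were the mouse as a block (replicate block), only the libraries compared, all 24 libraries and each library left out. Reads thinned to 6448579 per library were added after seeing the data. Where genotypes were compared within a treatment, the replicate block was the replicate number, which joins different mice.

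By the series' design text, same-numbered libraries of a genotype come from the same mouse. Their deviations from group means gave a median correlation of 0.170 in 36 pairs of libraries (-0.035 to 0.400, 32 over 0.1). In 35 of the 36 the library of the same number correlated best among those of the other group. The main test and the edgeR and DESeq2 alternatives did not use this pairing, and only the fits with the mouse as a block did. The 10 members and the pathway lists were chosen with earlier results of these data known. All 10 members are named throughout, up to 4 called genes per list and direction with the largest changes (1 such gene is not reported here), and the 2 genes most like each member called with KLA. Sequences are from RefSeq (GRCm38.p6).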

Additional observations from a re-analysis of the deposited data

How the results depend on the processing

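With KLA, 4 to 7 members were called in LXR-positive macrophages (6 in the main analysis) and 4 to 6 in DKO macrophages (5) over all alternatives, with 4 to 6 and 4 to 5 when 1 library was left out. The other counts were 0 in the main analysis. DKO against LXR-positive with KLA gave 1 member (Dusp16) with DESeq2, with only the libraries compared and with all 24 libraries. With GW3965 that comparison gave 3 (Dusp1, Dusp5 and Socs3) with DESeq2, the replicate block and all 24 libraries, and 1 (Dusp1) with only the libraries compared. With AcLDL it gave 1 (Zfp36) with DESeq2 and only the libraries compared. AcLDL against vehicle gave 1 (Irak3) in LXR-positive macrophages with DESeq2, the replicate block, only the libraries compared and all 24 libraries, and 1 (Irak3) in DKO macrophages with the replicate block. The cause was not tested. For the alternatives, the share of all genes called is not reported here. The member counts of this section can therefore not be set against it and are no result about the members. With the replicate block, KLA gave 7 members in LXR-positive and 6 in DKO macrophages, and beyond Dusp2, Zfp36, Irak3, Dusp1, Dusp5 and Socs3 as given above it changed no other call. Zfp36 in LXR-positive macrophages missed the threshold without the filter and with only the libraries compared (limma adjusted p = 0.064 and 0.069), and Dusp5 in DKO macrophages without the filter (0.071), with quantile normalization (0.0561) and with thinned reads (0.14). Of 1955 alternative values of single members, 0 reversed a called direction. A reversal was counted only where the main or the alternative value passed, and most main values did not pass. A further 92 values changed sign with no call in either fit. Read counts were lowest for Socs1 outside KLA (0 to 16 reads per library), Dusp2 (4 to 53) and Dusp5 (5 to 101).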
